A study of Mus musculus with 6 samples.

Results

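The genes described here encode the matricellular proteins and synthetic-phase matrix components of vascular smooth muscle, 10 in all: Fn1, Spp1, Tnc, Thbs1, Thbs2, Postn, Sparc, Vcan, Dcn and Lum. They were chosen by name, and every ATAC-seq peak overlapping the gene body or the 20 kb on either side of it (mm10, RefSeq) was taken. Peaks of different libraries that shared at least 1 base were merged, which gave 62 open regions at these genes out of 85174 in the whole series. ATAC-seq finds accessible chromatin as the DNA that a transposase, Tn5, can reach and cut. It was run on primary mouse vascular smooth muscle cells, bought from a supplier, to ask which accessible regions differ after RNA interference against Arid3a, a transcription factor that binds AT-rich DNA through its ARID domain. The knockdown group held 3 libraries, labelled si-Arid3a#1, si-Arid3a#2 and si-Arid3a#3, and the negative control group held 3 libraries. The labels do not say whether these numbers mean different siRNAs or replicates of a single siRNA, so the 2 cannot be told apart. Separate cultures are not stated for either group, so a p-value here measures spread between samples that may be technical. An siRNA acts on the transcript, so peak lists cannot check the knockdown. Transfected cells were kept for 24 h and 50000 cells entered each assay. An angiotensin II treatment of 36 h is also described for these cells, but which libraries had it is not stated, and groups were not split by it.

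Matricellular proteins are secreted into the matrix and act on cells through receptors such as integrins, syndecans, CD36, CD44 and CD47, more than they bear load. Smooth muscle cells that leave the contractile state and take up a proliferative and migratory one secrete more fibronectin, osteopontin, tenascin-C, thrombospondins and versican, a change long described in injured and aneurysmal arteries. Decorin and lumican are small leucine-rich proteoglycans that bind collagen fibrils, and both also mark fibroblasts. Open chromatin shows where a promoter or enhancer is accessible, not how much of a protein or transcript is made.

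The knockdown libraries held 50543, 51279 and 41629 peaks in replicates 1 to 3, and the control libraries held 51330, 33248 and 52091. Total depth, estimated from the lists, was 1.19 to 1.98 M tags (megatags) in the knockdown libraries and 0.953 to 2.01 M in the control libraries, with control replicate 2 the shallowest and knockdown replicate 3 next. The cell type was checked at gene ends, meaning a peak within 1000 bases of an annotated start or, for genes with no start in the promoter table used, of either end. Of 8 smooth muscle markers, 3 (Acta2, Tagln and Smtn) were open there in 6 of 6 libraries and 3 (Myh11, Des and Synpo2) in 0 of 6. Over all 21887 protein-coding genes 37.4% were open at the gene end in 6 of 6, so the count for smooth muscle markers (37.5%) was that of any gene and does not set them apart. Of the markers of other cells, 1 of 6 fibroblast genes (Col1a1), 0 of 6 endothelial, 0 of 6 leukocyte and 0 of 4 epithelial genes were open in 6 of 6, with the leukocyte gene Cd68 open in 5.

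The promoters below, 250 bases before to 50 bases after the annotated start, from RefSeq (GRCm38.p6, the assembly of mm10), are shown because the peaks bear on them in different ways. That of Tnc (chr4:64046966-64047265, minus strand) and that of Thbs2 (chr17:14694213-14694512, minus strand) lay wholly inside a region open in 6 of 6 libraries. That of Spp1 (chr5:104434861-104435160, plus strand) had 244 of its 300 bases, and that of Vcan (chr13:89742463-89742762, minus strand) 184 of 300, in a region open in 5 of 6. The promoter at the inner start of Postn (chr3:54360857-54361156, plus strand) held no peak in any library. Capitals mark matches, on either strand, to the 6 motifs searched, which were TATAAA of the TATA box and GGGCGG of the Sp1 family, TGANTCA as bound by AP-1 and GGAATG as bound by TEAD factors, ATTAAA from the JASPAR entry of Arid3a, and the CArG box of SRF. No match overlapped another.
Tnc: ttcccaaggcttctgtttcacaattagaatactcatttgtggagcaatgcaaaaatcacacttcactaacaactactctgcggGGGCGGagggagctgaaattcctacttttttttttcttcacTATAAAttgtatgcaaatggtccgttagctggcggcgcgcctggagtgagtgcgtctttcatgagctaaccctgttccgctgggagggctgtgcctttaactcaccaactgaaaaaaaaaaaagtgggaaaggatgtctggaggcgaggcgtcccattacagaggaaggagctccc
Thbs2: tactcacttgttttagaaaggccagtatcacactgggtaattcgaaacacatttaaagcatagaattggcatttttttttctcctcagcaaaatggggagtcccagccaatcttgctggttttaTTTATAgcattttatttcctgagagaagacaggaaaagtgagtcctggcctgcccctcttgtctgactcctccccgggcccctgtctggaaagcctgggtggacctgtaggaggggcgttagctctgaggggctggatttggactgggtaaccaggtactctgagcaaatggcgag
Spp1: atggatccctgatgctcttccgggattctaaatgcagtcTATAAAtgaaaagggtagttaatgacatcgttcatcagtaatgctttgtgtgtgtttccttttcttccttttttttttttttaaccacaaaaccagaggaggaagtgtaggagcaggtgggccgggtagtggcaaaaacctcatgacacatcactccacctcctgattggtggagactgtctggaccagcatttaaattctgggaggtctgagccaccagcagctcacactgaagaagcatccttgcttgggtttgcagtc
Vcan: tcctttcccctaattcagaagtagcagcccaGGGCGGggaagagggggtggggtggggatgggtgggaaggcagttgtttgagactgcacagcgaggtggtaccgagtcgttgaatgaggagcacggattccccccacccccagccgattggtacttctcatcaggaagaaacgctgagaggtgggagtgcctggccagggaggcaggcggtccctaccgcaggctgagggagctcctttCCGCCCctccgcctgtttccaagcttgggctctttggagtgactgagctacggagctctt
Postn, inner start: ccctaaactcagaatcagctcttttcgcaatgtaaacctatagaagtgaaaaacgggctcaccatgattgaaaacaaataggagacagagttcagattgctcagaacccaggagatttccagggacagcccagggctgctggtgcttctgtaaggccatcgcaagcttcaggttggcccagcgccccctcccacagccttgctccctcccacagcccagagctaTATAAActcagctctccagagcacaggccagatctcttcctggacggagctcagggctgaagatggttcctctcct

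Counting the start as 0, the Tnc promoter held GGGCGG from −167 to −162 and TATAAA from −126 to −121. In the Thbs2 promoter TATAAA stood on the opposite strand from −126 to −121, and in the Spp1 promoter it stood from −211 to −206. At the inner start of Postn it lay from −26 to −21, the distance at which a TATA box usually sits. The Vcan promoter held GGGCGG at −219 to −214 and, on the opposite strand, at −10 to −5. Of all 32851 promoters of this length, 13.6% held TATAAA and 35.7% held GGGCGG. The Arid3a letters ATTAAA were found in 1 of the 9 promoters listed for 6 of the 10 genes, at the inner start of Spp1, and in 13.9% of all promoters. The AP-1 letters, the TEAD letters and the CArG box were in none of the 9, and in 7.81%, 14.7% and 1.63% of all promoters. A match is a run of letters and not a site of binding.

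Each of the 10 genes had at least 1 region open in 6 of 6 libraries within its window, and 14 of the 62 regions (22.6%) were of this kind, against 24.4% of all regions. Thbs2 held 5 of these 14, and each of the other genes held 1. At the other end, 21 of 62 (33.9%) were called in a single library, against 33.5% of all regions. The windows held between 2 regions, at Postn and Lum, and 11, at Sparc. Per 10 kb of window this was 0.279 regions at Postn, 0.313 at Vcan and 0.424 at Lum, and 1.52 at Spp1 and 1.67 at Sparc, against a median of 0.548 over the windows of all 21887 protein-coding genes. Sparc and Spp1 stood at the 97.1st and 95.4th percentile of all windows in density, while for regions open in 6 of 6 libraries Thbs2 stood at the 97.4th, with 0.727 per 10 kb. For regions open in 6 of 6, Sparc and Spp1 stood only at the 51.0th and 64.8th percentile. The Spp1 window also takes in part of the gene Pkd2, 12.9 kb away, and regions there were counted with it.

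**Figure D1:**
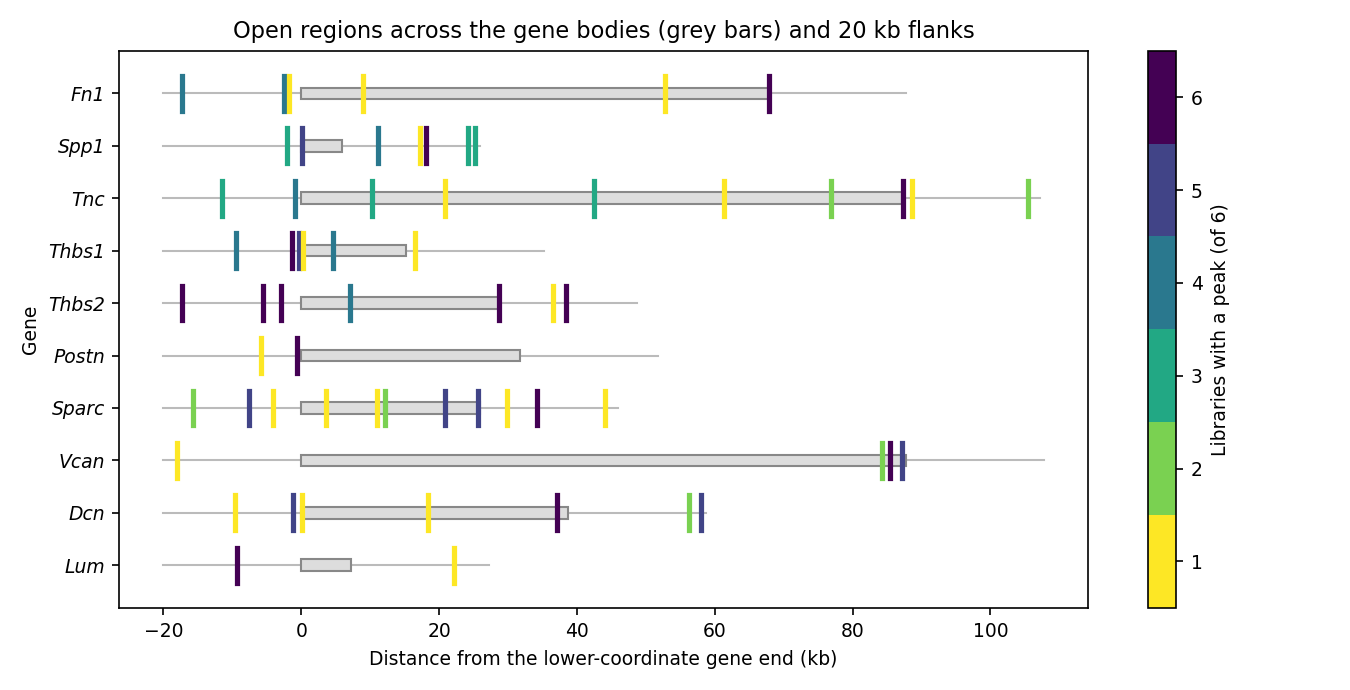
Open regions (ticks) at the 10 genes by distance in kb from the lower-coordinate gene end, with gene bodies as grey bars, 20 kb flanks as lines and colour for the number of libraries, of 6, with a peak. Thbs2 carries 5 regions open in 6 of 6 libraries and Vcan has its gene body free of regions apart from those near the upper end, whereas 7 of the 11 regions at Sparc are called in 1 or 2 libraries.

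Regions at gene ends were the most widely shared. Of 12 such regions 5 were open in 6 of 6 libraries (41.7%), against 2 of 17 inside genes (11.8%) and 7 of 33 in the flanks (21.2%). The same order held over all genes, at 51.3%, 19.7% and 28.9%. The 14 shared regions had a median of 22.3 tags at the summit and those of a single library a median of 5, as against 16.5 and 4 over all regions.

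Fn1 encodes fibronectin, the adhesive glycoprotein that cells assemble into fibrils and bind through integrins. Its single shared region covered the upper gene end (chr1:71652686-71653907) and was the widest of the 62, at 1222 bases. The fold enrichment at the summit is the authors' value for each peak, set against background within its own library, and describes a peak without measuring change between libraries. It was 9.11, 8.93 and 7.29 in knockdown replicates 1 to 3 and 11.4, 6.43 and 8.61 in control replicates 1 to 3. The summit held 21, 24 and 15 tags in the knockdown libraries and 28, 12 and 25 in the control libraries, lowest in the shallower library of each group, and the groups overlapped. Inside the 67808-base gene only 2 other regions lay wholly, each called in 1 library. A weaker pair below the gene, 17.1 kb and 2.30 kb away, was called in 4 of 6 libraries each, 2 of each group, with fold enrichments between 3.35 and 4.88. The window also held part of the gene Atic, whose body ended 6.07 kb from Fn1, and the region 17.1 kb away lay inside Atic.

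Tnc encodes tenascin-C, a large glycoprotein that loosens cell adhesion and is made in healing and inflamed tissue. The region over its start (chr4:64046725-64047501) was open in every library. Fold enrichment there was 7.84, 6.30 and 6.52 in the knockdown libraries and 8.90, 7.02 and 8.52 in the control libraries, on 20, 18 and 13 tags and on 22, 14 and 22 tags. Control replicates 1 and 3 were the highest, and the groups overlapped, since control replicate 2 lay below knockdown replicate 1. The summits lay from 63 bases before to 52 bases after the outer start.

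Of the other 9 regions in the Tnc window, 8 were called in more control than knockdown libraries and 1 in 1 of each, against 27.6% of all regions called in more control and 33.7% in more knockdown libraries. These are the peaks behind the window count given further on, and no separate evidence. Just below the lower gene end, which is the far end of the transcript, chr4:63958535-63959271 was called in 1 of 3 knockdown libraries (replicate 2, fold enrichment 5.44 on 6 tags) and in 3 of 3 control libraries (6.17, 6.61 and 4.78 on 8, 7 and 6 tags). Inside the gene, chr4:63969958-63970218 and chr4:64002105-64002495 were each called in 1 knockdown and 2 control libraries. A region 10.1 kb inside the start, chr4:64036496-64036812, was called in 0 of 3 knockdown and 2 of 3 control libraries, on 3 and 5 tags. Fold enrichments of these 9 ran from 3.61 to 7.56, and their summits held 3 to 12 tags.

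Thbs1 and Thbs2 encode thrombospondins, trimeric glycoproteins that bind CD36 and CD47 and restrain angiogenesis, and Thbs1 also activates latent TGF-β. The start region of Thbs2 (chr17:14693837-14694536) had a fold enrichment of 15.3, 13.8 and 8.55 in the knockdown libraries and 10.1, 10.9 and 12.1 in the control libraries, on 41, 41 and 20 tags and on 28, 22 and 35 tags. Knockdown replicates 1 and 2 stood above the other libraries and knockdown replicate 3 below them, so the knockdown values enclosed those of the control. Summits lay 30 to 169 bases after the start.

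Around the gene, 4 further regions were called in 6 of 6 libraries. Of these, 3 lay beyond the far end of the transcript, at 2.66, 5.26 and 16.9 kb, and 1 lay 9.32 kb before the start, at chr17:14703584-14704153. This upstream region had fold enrichments of 10.0, 9.46 and 9.26 in the knockdown libraries and 9.56, 7.35 and 10.4 in the control libraries. Knockdown values sat within the control range. The region at 16.9 kb (chr17:14647739-14648614) had 8.28, 12.4 and 10.7 in the knockdown libraries and 8.06, 6.06 and 10.4 in the control libraries, again overlapping. Inside the 28763-base gene, apart from the start, a single region was found, called in 2 of 3 knockdown and 2 of 3 control libraries.

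Thbs1 had its shared region 0.975 kb below the lower gene end (chr2:118110240-118110901). Fold enrichment was 6.79, 6.86 and 6.05 in the knockdown libraries and 6.31, 4.65 and 7.05 in the control libraries. The values were nearly level except for control replicate 2. A second region closer to that gene end, chr2:118111259-118111764, was absent from the list of knockdown replicate 2, one of the deepest libraries, and had 5.73 and 4.73 in knockdown replicates 1 and 3 and 6.54, 4.49 and 5.71 in the control libraries. Farther out, chr2:118102133-118102617, 9.26 kb below the gene, was called in 3 of 3 knockdown libraries (7.40, 12.01 and 8.97 on 10, 18 and 11 tags) and in 1 of 3 control libraries (replicate 1, 10.8 on 15 tags). Where it was called the control value lay inside the knockdown range. An inner region 4.38 kb from the lower gene end, chr2:118116255-118116558, was likewise called in 3 of 3 knockdown libraries (5.74, 6.68 and 5.94) and in control replicate 3 (7.78) alone of its group. The nearer end of the gene Fsip1 lay 3.13 kb above Thbs1.

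Spp1 encodes osteopontin, a phosphorylated ligand of αv integrins and CD44 that is a standard marker of the synthetic smooth muscle state. Its start region (chr5:104434917-104435409) was called in 5 of 6 libraries. Fold enrichment was 5.43, 7.54 and 6.40 in the knockdown libraries, and 5.47 and 4.67 in control replicates 2 and 3, while control replicate 1, a deep library, had no peak there. The summits were tightly placed, from 35 bases before to 6 bases after the start, on 7 to 15 tags. The strongest region of the window lay 11.96 kb beyond the upper end of Spp1, at chr5:104453015-104453479. It had fold enrichments of 16.1, 16.5 and 14.9 in the knockdown libraries and 13.6, 11.4 and 15.7 in the control libraries, on 35, 40 and 28 tags and on 28, 19 and 32 tags. Knockdown libraries held the highest 2 values, knockdown replicate 3 lay below control replicate 3, and the groups overlapped. This region lay within 1000 bases of the lower end of Pkd2, the polycystin-2 gene, which was 12.9 kb from Spp1.

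Postn encodes periostin, a ligand of αv integrins that promotes collagen cross-linking. Its window of 71.8 kb held 2 regions. The shared region (chr3:54358398-54358989) lay 0.278 kb before the outer annotated start and 2.12 kb before the inner start, whose promoter is printed above. Fold enrichment was 9.57, 11.6 and 6.66 in the knockdown libraries and 15.4, 8.64 and 14.2 in the control libraries, on 14, 18 and 9 tags and on 28, 12 and 25 tags. The 2 deep control libraries were highest, but control replicate 2 lay inside the knockdown range. The summits fell within 54 bases of each other, from −654 to −600 bases counted from the outer start.

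Sparc encodes osteonectin, a collagen-binding protein that governs matrix assembly. The start region (chr11:55419570-55420049) was called in 5 of 6 libraries, all but control replicate 2. Fold enrichment was 7.97, 6.78 and 4.72 in the knockdown libraries and 5.04 and 5.54 in control replicates 1 and 3, and the groups overlapped. All its summits lay 153 to 202 bases after the start, and 19 of 300 promoter bases were inside the region. A stronger region 7.85 kb before the start, chr11:55427931-55428833, was open in 6 of 6, with 12.2, 10.9 and 11.7 in the knockdown libraries and 11.99, 9.46 and 12.6 in the control libraries. Beyond the far end of the transcript, chr11:55386370-55386785 had 12.2 in each of knockdown replicates 1 and 2, no peak in knockdown replicate 3, and 9.93, 5.63 and 10.6 in the control libraries. Both deep knockdown libraries were above every control library there, while knockdown replicate 3 lacked the peak.

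Vcan encodes versican, the large chondroitin sulfate proteoglycan that binds hyaluronan in the expanded intima. All but 1 of its 4 regions lay within the first few kilobases of the transcript, and the remaining stretch of the 87719-base gene held none. The shared region (chr13:89740170-89741381) lay 1.13 kb inside the start used here, with fold enrichments of 6.15, 6.78 and 5.69 in the knockdown libraries and 6.06, 5.61 and 5.37 in the control libraries, the narrowest spread of the 14 at 5.94 ± 0.501 (SD, n = 6 libraries). Over the start itself, chr13:89742249-89742646 had 5.93, 5.73 and 6.62 in the knockdown libraries and 6.37 and 5.19 in control replicates 1 and 3. Control replicate 2 had no peak there, and the groups overlapped.

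Dcn held the highest fold enrichment of any member region, and it was not at a gene end. Region chr10:97516402-97516814, inside Dcn and 1.35 kb from its upper end, had 14.7, 20.05 and 15.3 in the knockdown libraries and 16.2, 11.3 and 17.0 in the control libraries, on 28, 38 and 25 tags and on 30, 17 and 33 tags. Knockdown replicate 2 was highest and control replicate 2 lowest, with the others between. It ranked within the top 3.13%, 0.119% and 0.531% of the knockdown lists and the top 1.47%, 3.58% and 0.607% of the control lists by fold enrichment, and its summits fell within 16 bases of each other. The lower end of Dcn had a peak within 1000 bases in 1 of 6 libraries, but a region at chr10:97478148-97478558, 0.942 kb below it, was called in 5 of 6. Fold enrichment there was 6.77, 6.90 and 6.72 in the knockdown libraries and 6.99 and 8.36 in control replicates 1 and 3.

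Lum, on the same chromosome as Dcn, had no peak at either gene end in any library. Its shared region lay 8.97 kb below the gene (chr10:97555697-97556535), with fold enrichments of 6.002, 6.99 and 4.95 in the knockdown libraries and 7.76, 4.79 and 7.47 in the control libraries. On 5 to 9 tags, this was the weakest of the 14 shared regions by tag number, and the groups overlapped. The only other region of the window was called in control replicate 2 alone.

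**Figure D2:**
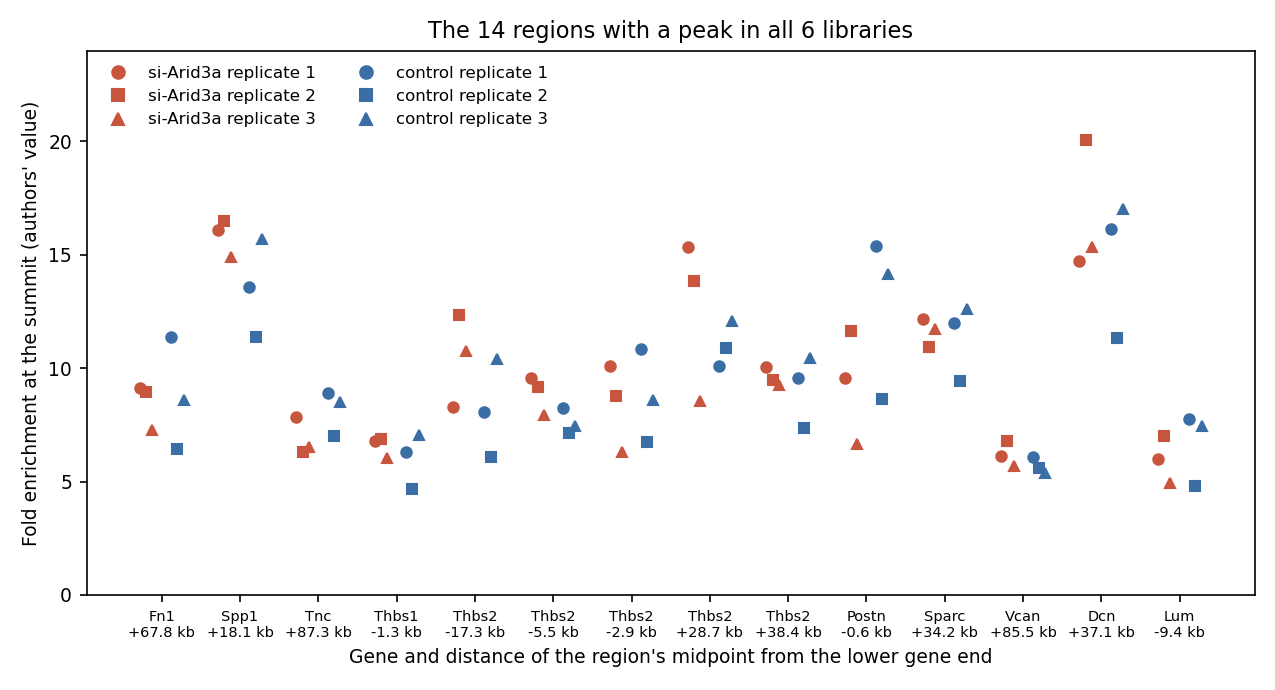
Fold enrichment at the summit, the authors' value, in each library for the 14 regions open in 6 of 6 libraries, named by gene and by distance in kb of the midpoint from the lower gene end. Points are single libraries, si-Arid3a in red and control in blue; the Dcn region reaches 20.05 and the Vcan region stays between 5.37 and 6.78.

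Summits lay at different places relative to the annotated start at different genes. They straddled the start at Spp1 and Tnc, lay after it at Thbs2, Sparc and Vcan, with medians of 122, 167 and 121 bases, and lay before it at Postn, with a median of −633 bases.

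**Figure D3:**
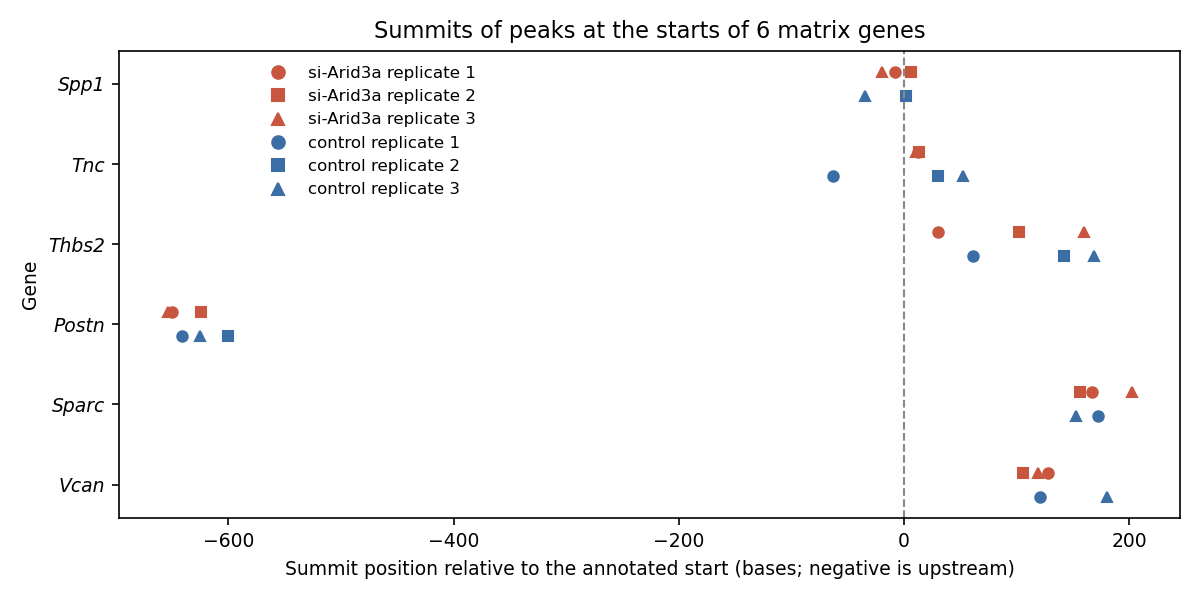
Summit positions, in bases from the annotated start, of peaks at 6 genes whose start is in the promoter table. The outer start was used where 2 are listed. For Vcan the only listed start, 89742512, lies inside the upper gene end at 89743027. Each library is 1 point, si-Arid3a in red above control in blue. The Spp1 summits lie between −35 and 6 bases and those of Postn between −654 and −600.

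No region at these genes was called in all libraries of 1 group and none of the other. Knockdown-only regions, present in 3 of 3 knockdown and 0 of 3 control libraries, numbered 0 of 62, against 0.432% of all regions, and control-only regions, the opposite case, numbered 0 of 62, against 0.277%. A count of 0 among 62 allows a share of up to 4.84%, counting error only, so neither share can be told from the background. Presence in 3 libraries against 3 allows an exact p of 0.1 at best. A looser pattern, 3 libraries of 1 group and 1 of the other, was looked at after the values were known. In 3 of 3 knockdown and 1 of 3 control libraries there were the 2 Thbs1 regions above, against 1.72% of all regions, and in 3 of 3 control and 1 of 3 knockdown libraries there was the region at the far end of Tnc, against 1.09%.

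Peaks per gene window were compared for every protein-coding gene with a peak in its window, 17734 in all, by an exact two-sided permutation test over the 20 ways to relabel the libraries. In 0 of the 10 windows did the groups separate, against 1.16% of windows with every knockdown library higher and 0.66% with every knockdown library lower. Adjusted p (Benjamini-Hochberg over the 17734 windows) was 1 for each of the 10 genes in this exact test, as it was for every window tested. The smallest unadjusted p the design allows is 0.1, which 323 of the 17734 windows reached. The number of windows with an unadjusted p under 0.05 was therefore 0. The mean difference was below 0 at 4 genes, 0 at Vcan and above 0 at 5, against 31.9% of all windows below 0 and 46.2% above. The members' median was 0.167 peaks, and that of all genes 0.

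Tnc differed most among the 10. Its window held 3, 4 and 1 peaks in knockdown replicates 1 to 3 and 8, 4 and 6 in control replicates 1 to 3, or 2.67 ± 1.53 peaks in the knockdown and 6 ± 2 in the control group (SD, n = 3). The exact two-sided permutation test gave p = 0.2, and adjusted p = 1. The groups touched at 4 peaks, and the difference of −3.33 peaks was as low or lower in 5 of 17734 windows (0.0282%), and as large in the other direction in 45 (0.254%). These shares rank raw counts over windows of all sizes, and a window with few regions can hardly reach such a difference. The Tnc window held 10 regions, against a median of 4 (upper quartile 6) over the windows of all 21887 genes. Tnc was singled out after the values were seen. Per 10000 peaks of each list, the Tnc window held 0.594, 0.780 and 0.240 peaks in the knockdown libraries and 1.56, 1.20 and 1.15 in the control libraries. On that scale the groups did not overlap, a pattern found with the knockdown lower in 2.85% and with the knockdown higher in 6.74% of windows. With lists cut to equal length the Tnc counts were 2, 1 and 1 in the knockdown libraries and 4, 4 and 2 in the control libraries, and when a −log10 q of 5 was required they were 2, 4 and 1 and 7, 2 and 3, where the groups overlapped. Knockdown replicate 3, with 1 peak, and control replicate 2, with 4, are the shallow libraries. In the 4 deepest libraries alone, a choice made after seeing the data, the Tnc window held 3 and 4 peaks in the knockdown and 8 and 6 in the control libraries, a difference of −3.5 peaks.

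At the other genes the groups overlapped on the scale of whole peaks and per 10000 listed peaks alike. Dcn held 5, 3 and 4 peaks in the knockdown libraries and 3, 2 and 4 in the control libraries, a difference of 1 (exact two-sided permutation p = 0.5, adjusted p = 1). Spp1 held 4, 7 and 2 against 4, 2 and 6, with a wide spread inside each group, while Thbs2 held 5, 6 and 6 against 6 in each control library. Sparc held 5, 5 and 6 in the knockdown libraries and 6, 3 and 6 in the control libraries. For Fn1, Thbs1, Postn, Vcan and Lum the means of the groups differed by at most 0.333 peaks.

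**Figure D4:**
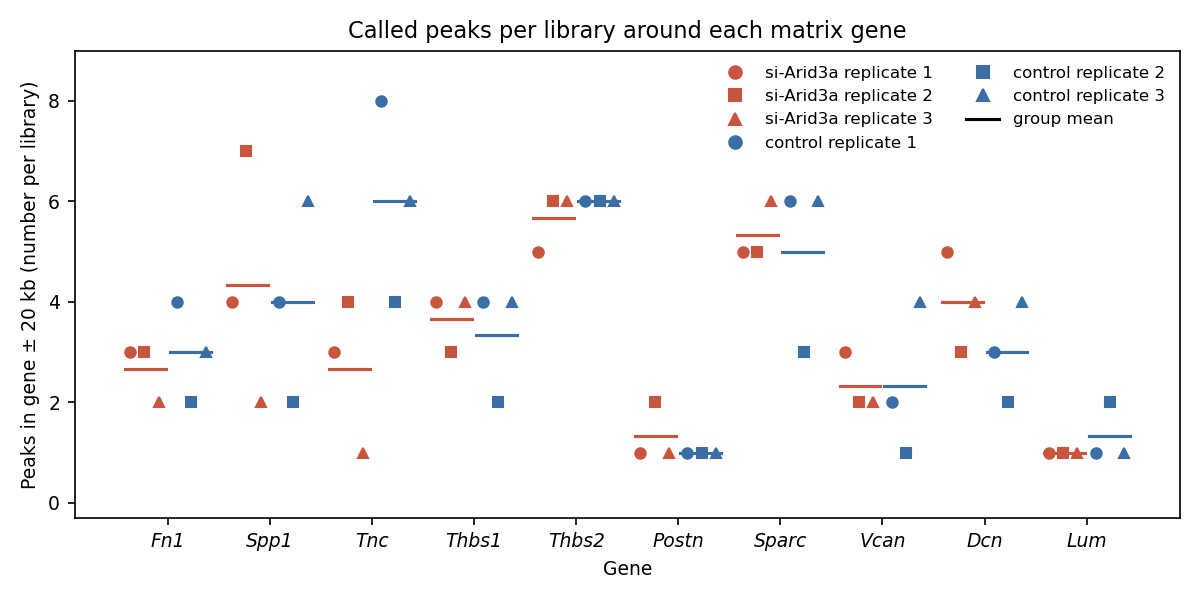
Number of called peaks in each gene window, body plus 20 kb on either side, per library, with si-Arid3a left in red and control right in blue, and bars for group means. Tnc holds 3, 4 and 1 peaks in the knockdown libraries and 8, 4 and 6 in the control libraries, and the groups share values or interleave at each gene.

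Over all 10 windows the knockdown libraries held 34, 36 and 29 peaks and the control libraries 39, 25 and 41. As a share this was 6.73, 7.02 and 6.97 per 10000 listed peaks in the knockdown libraries and 7.60, 7.52 and 7.87 in the control libraries, given as a description with no test. The difference of −0.758 turned to 0.501 with lists of equal length and to 0.111 within gene bodies alone. Without Tnc the shares were 6.13, 6.24 and 6.73 in the knockdown libraries and 6.04, 6.32 and 6.72 in the control libraries, which overlapped. Of the 8 regions called in 5 of 6 libraries, 2 were missing from knockdown replicate 3 and 4 from control replicate 2, and over all regions of that kind those libraries lacked 24.0% and 57.3%.

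Gene ends were open in 6 of 6 libraries at 4 of the 10 genes (Fn1, Tnc, Thbs2 and Postn), against 37.4% of all 21887 genes. They were open in 5 of 6 at Spp1, Thbs1, Sparc and Vcan, in 1 at Dcn and in 0 at Lum. With a window of 2000 bases 8 of the 10 were open in 6 of 6, against 40.0% of all genes. These shares are not of like genes. Either end counted for 4 of the 10 members (Fn1, Thbs1, Dcn and Lum), while 17492 of all 21887 genes had a listed start. Dcn entered only through the region 1.35 kb from its upper end. Spp1 entered because control replicate 1 had a peak in another region, 1.83 kb below the start. The difference was not tested. Here each library's own peak had to reach the window, whereas a merged region was placed at a gene end where any part of it did, as for the shared Thbs1 region. The library without a gene-end peak was knockdown replicate 2 at Thbs1, control replicate 1 at Spp1 and control replicate 2 at Sparc and Vcan. The outer, or only listed, promoters of Spp1, Thbs2, Postn and Sparc held 3, 4, 4 and 4 CpG dinucleotides in 300 bases, and those of Tnc and Vcan 10 and 12. Over all genes in the promoter table, promoters open in 6 of 6 libraries held a median of 22 (quartiles 15 and 29, 6729 genes) and those open in 0 of 6 a median of 3 (quartiles 1 and 7, 7181 genes). Those open in 1 to 5 libraries held a median of 18 (quartiles 9 and 28, 3582 genes). Among the members open in 6 of 6, the outer promoters of Tnc, Thbs2 and Postn lay below the lower quartile of that class, while the second Tnc promoter, inside the same region, held 16 CpG and lay above it. Of those open in 5 of 6, Spp1 and Sparc lay below the lower quartile of the class open in 1 to 5, and Vcan lay above it. Open here means a peak within 1000 bases, and the outer start of Postn lay 0.278 kb and that of Sparc 0.031 kb outside the nearest region.

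Related matrix genes were taken from lists chosen for this family, whose counts stand beside 37.4% of all genes and were not compared with each other by a test. Of 17 further matricellular genes 6 (35.3%) were open at the gene end in 6 of 6 libraries, namely Ccn2, Ccn3, Ccn4, Ccn5, Thbs3 and Sparcl1. Ccn1 was open in 4, and Thbs4, Tnr, Tnn, Tgfbi and Spock1 in 0. Of 8 further small leucine-rich proteoglycans none was open in 6 of 6, with Bgn (biglycan) open in 1, Prelp in 2 and Fmod, Aspn, Ogn, Omd, Kera and Epyc in 0. Nor was any of the 7 lecticans and link proteins, where Bcan and Hapln4 were open in 1 and Acan (aggrecan) and Hapln1 in 0. Of 14 receptors 7 were open in 6 of 6, among them Itgav and Itgb1, whose products pair with other chains to bind fibronectin and osteopontin, Cd44, Cd47 and Sdc1. Among the other receptors, Itga5 was open in 1 library and Cd36, Itga9 and Ddr2 in 0. Dcn and Lum, open in 1 and 0 libraries within 1000 bases of their ends, stood in the same range as the 8 further proteoglycans, and the likeness was not tested. For Dcn it depends on that limit, since a region called in 6 of 6 libraries lay 1.35 kb from its upper end. The 8 proteoglycans were not counted with a wider window.

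Among matricellular genes a control-only region stood 11.2 kb above Ccn2 (chr10:24609864-24610258, fold enrichment 4.50 ± 1.22, SD, n = 3) and another inside Ccn5 (chr2:163831063-163831551, 3.92 ± 0.452, SD, n = 3). These were 2 of 140 regions (1.43%), against 0.277% of all regions, on peaks of 3 to 6 tags, and the difference was not tested. Among receptors a knockdown-only region stood 5.08 kb below Cd44 (chr2:102805563-102806063, 6.38 ± 1.32, SD, n = 3) and a control-only region inside Itgb5 (chr16:33878969-33879301, 5.51 ± 1.47, SD, n = 3). Each was 1 of 177 regions (0.565%), against 0.432% and 0.277% of all regions. The proteoglycan and link lists held 0 in either direction, among 35 and 32 regions. Between 3 and 14 tags stood behind each peak of these 4 regions. Among the marker lists there was 1 such region, knockdown-only, inside the endothelial gene Vwf. That was 1 of 39 endothelial regions (2.56%), against 0.432% of all regions, and the difference was not tested. The smooth muscle, fibroblast, leukocyte and epithelial lists held 0 among 61, 42, 18 and 19 regions. The median difference in peaks per window, knockdown minus control, was 0 for the first 3 lists and 0.500 for the receptors. It was likewise 0.500 for the endothelial markers, 0.333 for the epithelial markers and 0 for the smooth muscle, fibroblast and leukocyte markers.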

How the data were processed

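ATAC-seq peak lists of 6 libraries, 3 knockdown and 3 control, were used. Per the submitters' processing notes, Bowtie2, Picard and MACS2 and the build mm10 were used; their versions and settings, the handling of duplicates and any Tn5 shift were not given in the sources used here. Kept duplicates would raise tag numbers, and a missing shift would move summits by a few bases. There is 1 deposited list per library, so peaks were compared as separately called lists. Each holds the authors' fold enrichment (a ratio over local background of the same library), the deposited −log10 p and −log10 q, and a deposited score equal to 10 times −log10 q cut to a whole number for at least 99.988% of peaks. The smallest −log10 q was 1.30 to 1.32 per list.

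Tags at a summit were recovered from fold and −log10 p under a Poisson model, with 1 added to tags and to background in the ratio. Median fold enrichment was 5.96 in knockdown replicate 3 and 5.78 in control replicate 2, the shallow libraries, and 6.76 to 6.95 in the others. Fold values of different libraries were not adjusted for this. Per library, at least 99.996% of peaks had a whole number from 1 to 600 that gave the deposited −log10 p to within 0.001, and at most 0.851% had more than 1. Total depth follows from the most frequent background value, the shortest peak and an assumed genome size, and serves to rank libraries. Tags and fold enrichments entered no test.

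Peaks were merged at 1 base of overlap, and a library was present in a region where its peak overlapped it. Gene positions are RefSeq GRCm38.p6, for 21887 protein-coding genes. A start was taken from the promoter table for 17492 of them, 6 of the 10 members included, and either gene end for the others. Peak numbers per window were compared by exact permutation, adjusted over all genes tested. The members, lists, rules and tests were chosen with earlier results of these data known. Named genes were the 10 members, genes overlapping their windows, and listed genes with a group-specific region or an end open in 6 of 6 or 0 of 6 libraries, plus a few others given to complete a count. The tests were checked on simulated data and the merge against bedtools. Alternatives were the flank (0, 5 and 50 kb), a −log10 q of 5, lists of equal length, 50% coverage, gene-end windows of 500 and 2000 bases, each library left out and a replicate block. Python 3.11.15, pandas 2.3.3, NumPy 2.4.6 and SciPy 1.17.1 were used.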

Additional observations from a re-analysis of the deposited data

How the results depend on the processing

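Tnc had fewer peaks in the knockdown libraries under every alternative run, by −1.67 to −4.33 peaks on average against −3.33, and −2 with lists of equal length. The replicate block, an exact sign-flip test within replicate numbers, left the number of windows with separate groups at 0, with an exact permutation p of 0.5 for Tnc, and 0.25 is the smallest it allows. The labels number the libraries of both groups 1 to 3, but same-numbered libraries did not deviate together over all regions (correlations 0.0240, −0.0521 and −0.0479), so the numbers were not taken as pairs. Windows with separate groups numbered 0 to 1 with a library left out (Tnc without control replicate 2 or knockdown replicate 2). On the scale of peaks per 10000 listed peaks the number was 1 (Tnc). In the 4 deepest libraries it was 2 (Tnc and Sparc, both lower in the knockdown), an alternative chosen after seeing the data. Sparc held 5 and 5 peaks there in the knockdown and 6 and 6 in the control libraries. Smaller groups separate more easily, and the share of all windows with separate groups was not counted with fewer than 6 libraries. Control-only regions numbered 0 to 1 with a library left out (at Tnc without control replicate 1 or knockdown replicate 2). Knockdown-only regions also numbered 0 to 1 (at Thbs1 without control replicate 1 or 3 and at Dcn without knockdown replicate 2). Where peaks had to cover 50% of the region, 1 control-only region appeared, at the far end of Tnc. Both patterns are easier to meet with a library left out, and the share of all regions was not counted at these settings. Regions open in all libraries numbered 5, 8 and 29 with flanks of 0, 5 and 50 kb, in which 25, 38 and 108 regions were counted, 14 to 18 with a library left out and 22 in the 4 deepest libraries. Gene ends open in all libraries numbered 8 of 10 with windows of 2000 bases, and 4 to 6 with a library left out.

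The difference in peaks per 10000 listed peaks over all windows was −0.758, and −0.830 to −0.654 with a library left out. It was 0.111 and −0.384 with flanks of 0 and 5 kb, −0.0465 at a −log10 q of 5 or more, 0.501 with lists of equal length and 0.00844 without Tnc, a setting also chosen after seeing the data. The difference in peaks was −2, and −7 to 1 with a library left out. Small differences of single genes turned round. Postn and Sparc came to −0.333 with a flank of 50 kb, Thbs1 to −0.333 with 5 kb, and Sparc and Thbs1 to −1 and −0.5 in the 4 deepest libraries. With a library left out the range was −0.833 to 0.167 for Fn1, −0.667 to 0.833 for Sparc, −1 to 1.5 for Spp1 and −0.333 to 0.667 for Thbs1. The causes were not tested. The median peak of the shallow libraries held 8 tags and that of the others 11, and the part of depth in which weak peaks were called was not tested.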
